A study of Mus musculus with 12 samples.

Results

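Dorsal root ganglia taken 7 days after spared nerve injury were compared with ganglia of naïve mice, in 6 of the 12 RNA-seq libraries of the series, 3 from each group. The day 7 ganglia came from adult C57BL/6J males, 9 to 10 weeks of age, whose sciatic nerve had been injured by tying and cutting its tibial and its common peroneal branch while the sural branch was spared. The naïve ganglia came from mice of the same strain, sex and age with no nerve injury. The series also holds 3 libraries each from 1 and 3 days after injury, which share the estimate of spread here and are used for the time course, and the study set expression beside pain behaviour at the same times. Sham-operated mice are not analysed here, so surgery and nerve lesion enter the comparison together. The labels name neither the spinal levels of the ganglia nor the number of mice behind a library, so the p-values reflect only how far these libraries differ among themselves, part of which may be technical.

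The ganglion holds the cell bodies of sensory neurons, each wrapped in satellite glia, together with Schwann cells, fibroblasts, vessels and resident macrophages. Cutting a sensory axon is known to start a programme in the cell body in which injury transcription factors, growth genes and certain neuropeptides are induced, several channels and receptors of the uninjured neuron are reduced, and macrophages gather around the cell bodies. Since part of the nerve is spared in this model, injured and uninjured neurons lie side by side in the same ganglia.

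Expression was deposited as RPKM, reads normalised for the length of the gene and the depth of the library, and is printed here as deposited. Fold changes are differences of log2(RPKM + 0.5) after scaling between libraries, day 7 minus naïve, given with the standard error of the fit. A gene is called where limma's moderated test, adjusted over the 14195 genes tested by the Benjamini-Hochberg method, gives an adjusted p under 0.05. Library sizes recovered from the steps between low values ran from 13627000 to 17674000 reads in these 6 libraries, so that 1 read amounted to between 0.0566 and 0.0734 RPKM for a gene 1 kb long.

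Day 7 replicate 1 stood apart from the other libraries. Its ribosomal protein genes summed to 661 RPKM, against 1469 and 1336 RPKM in the other day 7 libraries and 1307, 831 and 896 RPKM in the naïve libraries. The general sensory neuron markers summed to 1950, 3135 and 2970 RPKM at day 7, against 3823, 3032 and 2933 RPKM in naïve ganglia, and day 7 replicate 1 was again the lowest. Skeletal muscle genes were uneven in both groups, at 17.1, 73.7 and 23.3 RPKM in sum at day 7 and 82.9, 24.7 and 19.97 RPKM in naïve ganglia. Values without these libraries are given beside many of the results, and beyond that their part in the results was not tested.

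At day 7, 415 of 14195 genes were called (2.92%), of which 330 were higher (2.32%) and 85 were lower (0.599%). The rises were larger than the falls: 181 genes were at least 2-fold higher (1.28%) and 6 were at least 2-fold lower (0.0423%). In all 415 called genes the scaled values of the 3 day 7 libraries lay entirely on 1 side of those of the 3 naïve libraries, as they did in 16.8% of all genes tested. These shares are the background for the counts in gene lists that follow. A list with 1 call in 20 or more genes lies close to the 2.92% for both directions together. Lower calls taken alone were rarer, at 0.599%. The median fold change over all genes was 0.002 on the log2 scale. The split of 79.5% higher among called genes was uneven between fits, at 70.2% of 550 calls with voom on the recovered reads and 61.1% of 831 calls with array weights. Without day 7 replicate 1 the count was 522, with 334 higher and 188 lower. Without naïve replicate 1 and day 7 replicate 2, the libraries with the most muscle RNA, it was 165, with 152 higher and 13 lower.

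**Figure D1:**
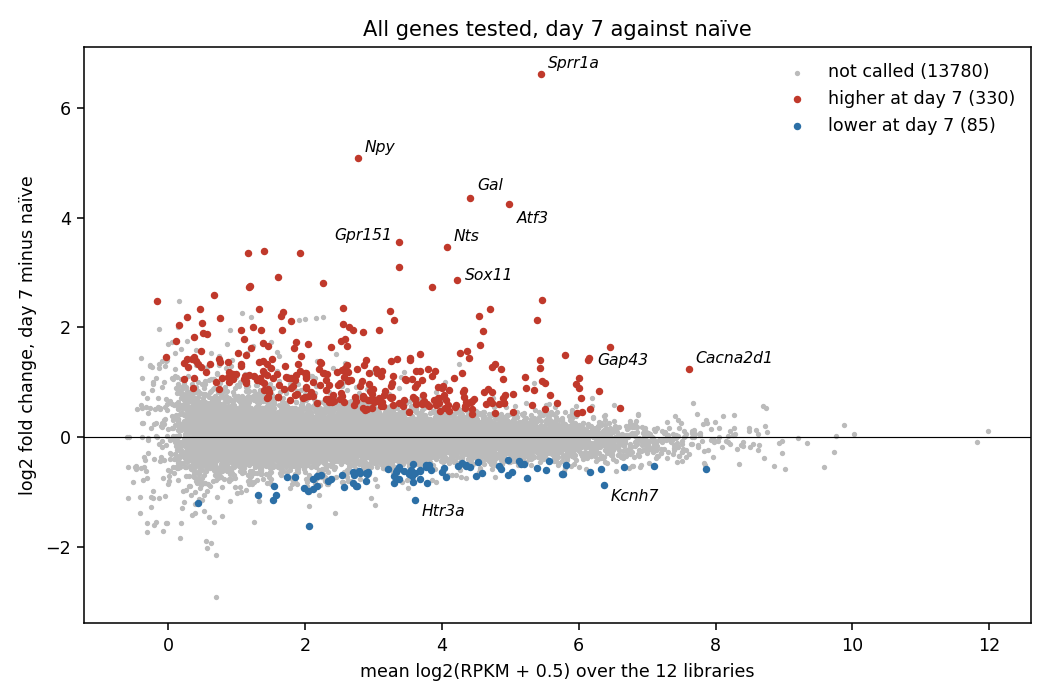
Each point is 1 of the 14195 genes tested, with its mean log2(RPKM + 0.5) over the 12 libraries on the horizontal axis and its log2 fold change, day 7 minus naïve, on the vertical axis. The 330 genes called higher reach a fold change of 6.63 (Sprr1a), while the 85 called lower reach no further than -1.61.

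The 3 marker genes of this comparison were all higher at day 7. They were chosen with earlier results of these data known, so they describe the comparison and do not test it. Npy, which encodes neuropeptide Y and is known to appear in sensory neurons after axotomy, had 18.5, 32.5 and 21.8 RPKM in the day 7 libraries, against 0.640, 0.109 and 0 RPKM in the naïve libraries. Ctss, a lysosomal protease of macrophages, had 9.20, 19.3 and 18.2 RPKM at day 7, against 4.05, 3.33 and 3.10 RPKM in naïve ganglia. Csf1r, the receptor for colony stimulating factor 1 on macrophages, had 3.39, 4.51 and 4.89 RPKM at day 7, against 1.21, 1.55 and 1.11 RPKM in naïve ganglia. No library of either group overlapped the other group in these genes, a separation that scaled values showed in 16.8% of all genes tested. Npy also reached the expression filter only through its injured libraries.

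Injury-induced neuropeptides gave the highest median of any gene group. Of 8 peptide genes listed, 4 passed the expression filter, all 4 were called higher, and their median fold change was 3.91. These were Npy, Gal, Nts and Adcyap1. Npy reached the filter only through its injured libraries, which favoured a rise, while the other 3 also reached it in every naïve library. Npy (chr6:49822710-49829507 in mm10, plus strand) rose by 5.09 ± 0.28 (SE, adjusted p = 4.52e-07). Its naïve values were close to 0, so the size depends on the value added before the logarithm. It was 4.33 with 1 RPKM added, 6.56 with 0.1 RPKM added and 6.94 with voom on recovered reads.

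Gal (chr19:3409915-3414544, minus strand), which encodes galanin, had 32.2, 77.9 and 72.4 RPKM at day 7, against 2.40, 1.79 and 2.64 RPKM in naïve ganglia, a rise of 4.35 ± 0.25 (SE, adjusted p = 6.97e-07). Nts, which encodes neurotensin, had 27.8, 66.6 and 46.6 RPKM at day 7, against 4.67, 2.52 and 3.52 RPKM in naïve ganglia, and rose by 3.47 ± 0.29 (SE, adjusted p = 3.24e-05). Day 7 replicate 1 was the lowest of the day 7 libraries in all 3 of Npy, Gal and Nts, and still lay above every naïve library. Adcyap1, which encodes the peptide PACAP, differed from these in being well expressed before injury. It had 33.5, 51.4 and 30.3 RPKM at day 7, against 19.4, 15.7 and 18.4 RPKM in naïve ganglia, and rose by 1.03 ± 0.18 (SE, adjusted p = 0.0044). That call was lost without naïve replicate 1 and day 7 replicate 2 (adjusted p = 0.0511). Vip, another peptide known from injured sensory neurons, was listed at 0 in all 3 day 7 libraries and at 0.137, 0.156 and 0 RPKM in naïve libraries. In whole ganglia, more cells making a transcript and more transcript per cell cannot be told apart, and neither can fewer cells and less RNA per cell.

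**Figure D2:**
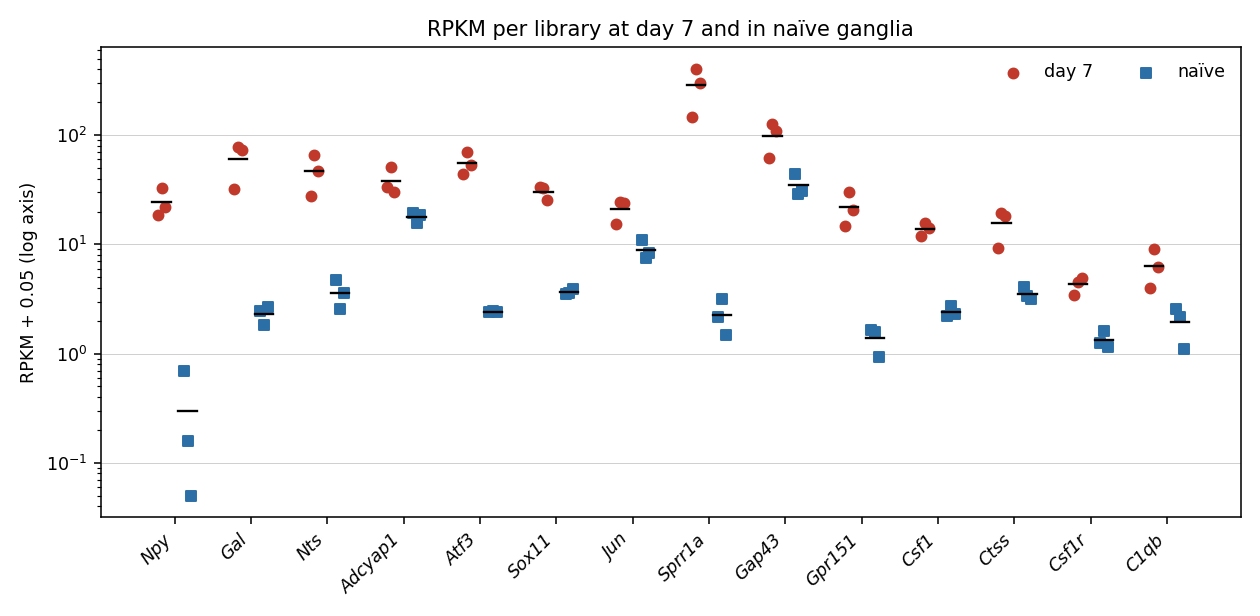
RPKM per library, plus 0.05 and on a log axis, of 14 genes higher at day 7, with day 7 libraries as red circles left of the naïve libraries as blue squares and a black bar at each group's mean. The groups are fully separated in each gene shown, from Jun with 15.3 RPKM in its lowest day 7 library and 11.01 RPKM in its highest naïve library to Sprr1a with 148 and 3.09 RPKM.

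Among 18 tested transcription factors linked to axon injury, 6 were called higher, none was called lower, and the median fold change was 0.40. The 6 were Atf3, Sox11, Jun, Fosl2, Klf6 and Smad1. Atf3 (chr1:191170296-191218039, minus strand), a stress-induced factor widely used as a label of axotomised neurons, had 44.1, 70.1 and 53.3 RPKM at day 7, against 2.33, 2.38 and 2.37 RPKM in naïve ganglia. It rose by 4.25 ± 0.14 (SE, adjusted p = 6.71e-10), the smallest adjusted p of the named genes. Sox11, a factor of developing neurons that promotes axon regrowth, had 33.6, 32.5 and 25.3 RPKM at day 7, against 3.50, 3.56 and 3.89 RPKM in naïve ganglia, a rise of 2.86 ± 0.18 (SE, adjusted p = 4.52e-07).

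The remaining rises among the factors were near 2-fold. Jun, a subunit of the AP-1 complex, had 15.3, 24.2 and 24.1 RPKM at day 7 and 11.01, 7.51 and 8.23 RPKM in naïve ganglia, and rose by 1.17 (adjusted p = 0.00108). Fosl2, another AP-1 subunit, rose by 1.03 (adjusted p = 0.00135), Klf6, a zinc finger factor, by 0.91 (adjusted p = 0.00257) and Smad1, an effector of bone morphogenetic protein signalling, by 0.83 (adjusted p = 0.000415). Klf6 alone of the 6 lost its call in an alternative, without naïve replicate 1 and day 7 replicate 2 (adjusted p = 0.0626). The other 12 factors did not pass. Stat3, which carries cytokine signals to the nucleus, had 42.3, 54.0 and 58.3 RPKM at day 7 and 46.4, 43.9 and 41.3 RPKM in naïve ganglia. Its groups overlapped as deposited, though not after scaling. Atf3, Jun and Fosl2 were also the 3 genes called among 14 tested immediate early genes (21.4%). Egr1 and Fos, of that list as well, had fold changes of 0.21 and 0.42 that did not pass (adjusted p = 0.717 and 0.566).

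Axon growth and injury surface genes held the largest block of rises. Of 35 tested, 19 were called higher and none lower, with a median fold change of 1.35, and the count stayed between 17 and 22 in every alternative tried. Sprr1a, a small proline-rich protein that promotes axon outgrowth, showed the largest rise among the named genes, with 148, 407 and 302 RPKM at day 7, against 2.12, 3.09 and 1.42 RPKM in naïve ganglia (6.63 ± 0.53, SE, adjusted p = 0.000114). The day 7 libraries differed among themselves by more than 2-fold in Sprr1a, and the lowest of them was still far above every naïve library. Gap43, the growth cone protein, had 62.3, 126 and 109 RPKM at day 7, against 44.5, 29.0 and 30.5 RPKM in naïve ganglia, and rose by 1.44 ± 0.22 (SE, adjusted p = 0.00219).

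Cell surface and secreted proteins made up much of the list. Gpr151, an orphan receptor, had 14.8, 30.1 and 20.7 RPKM at day 7, against 1.58, 1.53 and 0.888 RPKM in naïve ganglia (fold change 3.55). Sez6l, a neuronal membrane protein, had 17.6, 20.4 and 20.3 RPKM at day 7, against 1.49, 2.22 and 1.69 RPKM in naïve ganglia (fold change 3.10). Ecel1, a neuronal membrane peptidase, had 6.37, 8.47 and 7.94 RPKM at day 7, against 0.0701, 0.499 and 0.309 RPKM in naïve ganglia. Ecel1, Cckbr and Fst had no naïve library at 1 RPKM. These 3 of the 19 thus reached the expression filter only through injured libraries, which favoured a rise. The Ecel1 fold change of 3.35 became 2.72 with 1 RPKM added before the logarithm and 4.43 with 0.1 RPKM. Cckbr, a receptor for cholecystokinin, rose by 2.91, Sema6a, a guidance cue of the semaphorin family, by 2.50 and Flrt3, an adhesion protein of growing axons, by 2.14. Fst, which encodes follistatin, the secreted binder of activins, rose by 2.81 (3.56 with voom on recovered reads) and Lmo7, a LIM domain protein, by 2.74.

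Csf1, which encodes the ligand of the macrophage receptor Csf1r and is known to be induced in injured sensory neurons, had 11.9, 15.6 and 14.0 RPKM at day 7, against 2.16, 2.65 and 2.23 RPKM in naïve ganglia (2.30 ± 0.13, SE, adjusted p = 1.38e-07). Gadd45a, a growth arrest gene, had 21.7, 45.3 and 29.2 RPKM at day 7, against 7.75, 4.48 and 5.01 RPKM in naïve ganglia (fold change 2.33, adjusted p = 0.0002). Stmn4, a stathmin that acts on microtubules, rose by 2.36 and Anxa1, an annexin, by 2.14. Of the 19 called genes, 17 passed in every alternative that kept them. The other two were Vgf, the neurosecretory protein, whose rise of 1.35 was lost without naïve replicate 1 and day 7 replicate 2 (adjusted p = 0.0598), and Tubb6, a beta-tubulin, whose rise of 0.76 (adjusted p = 0.0204) was less stable. The call of Tubb6 was lost without naïve replicates 1, 2 or 3 (0.0867, 0.0551 and 0.0744) or day 7 replicates 2 or 3 (0.101 and 0.0813). Among the 16 that were not called were Bdnf, the neurotrophin, with 4.08, 5.06 and 5.30 RPKM at day 7 and 4.64, 3.01 and 4.12 RPKM in naïve ganglia, and Hspb1, a small heat shock protein, with 7.00, 15.1 and 15.7 RPKM at day 7 and 11.1, 5.15 and 5.84 RPKM in naïve ganglia. As deposited, the values of both overlapped between the groups, while the scaled values of Bdnf did not overlap (adjusted p = 0.594).

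Promoters of called genes named here were searched for the letters bound by AP-1 (TGACTCA) and by cyclic AMP response element factors (TGACGTCA), since Jun and Fosl2, subunits of AP-1, and Atf3, which pairs with Jun, were among those that rose. The search covered both strands of the 250 bases before the gene start in RefSeq records on GRCm38.p6, and 67 of 92 called genes had a record. AP-1 letters stood in the window of Sprr1a, at 116 and 146 bases from the start, and of Nts, at 207 bases. The other motif stood in the window of Pnpla3, a lipid droplet protein that was lower at day 7, at 46 bases. Matches in genes of 1 chromosome were left out of this listing, though those genes stay in the 67. AP-1 letters were thus in at least 2 of the 67 and the other motif in at least 1. Over all 27025 genes with a record, 5.16% held the AP-1 letters and 1.77% the other motif, and over the 10233 of the 14195 tested genes that had a record the shares were 3.99% and 3.01%. With under 80% of either set on record, the shares are not compared. These are matches of letters, not measured binding sites. The stretches are printed on the strand of the gene, 5′ to 3′, with the motif in capitals (TGAGTCA is the AP-1 motif on the opposite strand).
Sprr1a, chr3:92485976-92486012, minus strand: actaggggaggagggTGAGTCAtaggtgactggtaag
Sprr1a, chr3:92486006-92486042, minus strand: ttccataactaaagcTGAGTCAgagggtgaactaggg
Nts, chr10:102490604-102490640, minus strand: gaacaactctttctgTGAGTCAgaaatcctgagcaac
Pnpla3, chr15:84167755-84167792, plus strand: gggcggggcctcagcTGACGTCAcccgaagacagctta

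Of the listed potassium, sodium, calcium and HCN channel genes, those that were called were lower at day 7, with 1 exception. Cacna2d1 (chr5:15934691-16374511, plus strand), the alpha2delta-1 calcium channel subunit and the target of gabapentin, had 305, 273 and 212 RPKM at day 7, against 104, 106 and 112 RPKM in naïve ganglia. It rose by 1.25 ± 0.19 (SE, adjusted p = 0.00125) and was the only 1 of 21 tested calcium and HCN channel genes to be called, in a group whose median was -0.12. Its paralogue Cacna2d2 had 6.96, 7.47 and 10.0 RPKM at day 7 and 10.4, 11.9 and 10.4 RPKM in naïve ganglia and did not pass (adjusted p = 0.155).

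Potassium channels and their auxiliary subunits set the resting potential and firing of sensory neurons. Of 44 tested, 7 were called lower and none higher, and the median was -0.32. Kcnh7, an ether-a-go-go related channel, had 79.6, 63.4 and 58.2 RPKM at day 7, against 112, 122 and 124 RPKM in naïve ganglia. It fell by 0.86 (adjusted p = 0.00967), a call lost without naïve replicate 2 (adjusted p = 0.0554) or naïve replicate 3 (adjusted p = 0.0569).

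Kcnh5, Kcnk1, Dpp10, Kcnip1 and Kcns3 were also lower, with fold changes from -0.82 to -0.59. Dpp10, an auxiliary subunit of Kv4 channels, had 35.9, 28.2 and 33.0 RPKM at day 7, against 50.2, 50.7 and 48.1 RPKM in naïve ganglia. Kcnk1, a potassium leak channel, had 7.52, 11.9 and 11.4 RPKM at day 7, against 20.9, 14.2 and 16.5 RPKM in naïve ganglia, and day 7 replicate 1 was again the lowest. The call of Kcnk1 was lost without day 7 replicate 1 (adjusted p = 0.0534), day 7 replicate 3 (0.0503), naïve replicate 1 (0.0973) or naïve replicate 3 (0.0693). That of Kcnip1, a Kv4 channel-interacting protein, was lost without day 7 replicate 1 (0.0633), naïve replicate 1 (0.117) or naïve replicate 3 (0.0686). Kcnh5, Dpp10 and Kcns3 also lost their calls without naïve replicate 2 (0.124, 0.0816 and 0.0616) and without naïve replicate 3 (0.125, 0.0631 and 0.0616). The number of potassium channel genes called lower was 4, 3 and 1 without naïve replicates 1, 2 and 3, and 10, 6 and 4 without day 7 replicates 1, 2 and 3. It was 15 with array weights, 3 with the 2 groups fitted alone and 2 without naïve replicate 1 and day 7 replicate 2, while the median stayed between -0.39 and -0.28. Kcna2, a Kv1 channel of large sensory neurons, had 120.4, 101 and 97.3 RPKM at day 7 and 136, 155 and 161 RPKM in naïve ganglia. Its groups did not overlap as deposited but did after scaling, and it did not pass (adjusted p = 0.129).

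Sodium channels were a shorter list with a similar share of calls, 14.3% against 15.9% for potassium channels. Of 14 tested, 2 were called lower, Scn1a and Scn4b, none was higher, and the median was -0.30. The count was 5 without day 7 replicate 1, 7 with array weights, and 0 without naïve replicate 2 or with the 2 groups fitted alone. Scn1a, which encodes Nav1.1, had 39.95, 31.4 and 28.1 RPKM at day 7, against 51.6, 54.6 and 55.8 RPKM in naïve ganglia, and fell by 0.74 (adjusted p = 0.0204). Scn4b, the beta4 subunit, had 17.2, 20.3 and 17.4 RPKM at day 7, against 27.4, 26.6 and 25.3 RPKM in naïve ganglia, and fell by 0.55 (adjusted p = 0.00951). Both calls were lost without naïve replicate 2 (adjusted p = 0.0914 for Scn1a and 0.0578 for Scn4b), and that of Scn1a also without naïve replicate 3 (0.0954), day 7 replicate 2 (0.0874) or day 7 replicate 3 (0.0845). Scn10a, the nociceptor channel Nav1.8, had 164, 149 and 187 RPKM at day 7 and 198, 216 and 206 RPKM in naïve ganglia, a difference of -0.34 without overlap that did not pass (adjusted p = 0.238). Scn11a and Scn9a, which encode Nav1.9 and Nav1.7, differed by -0.31 and -0.30 (adjusted p = 0.264 and 0.472).

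**Figure D3:**
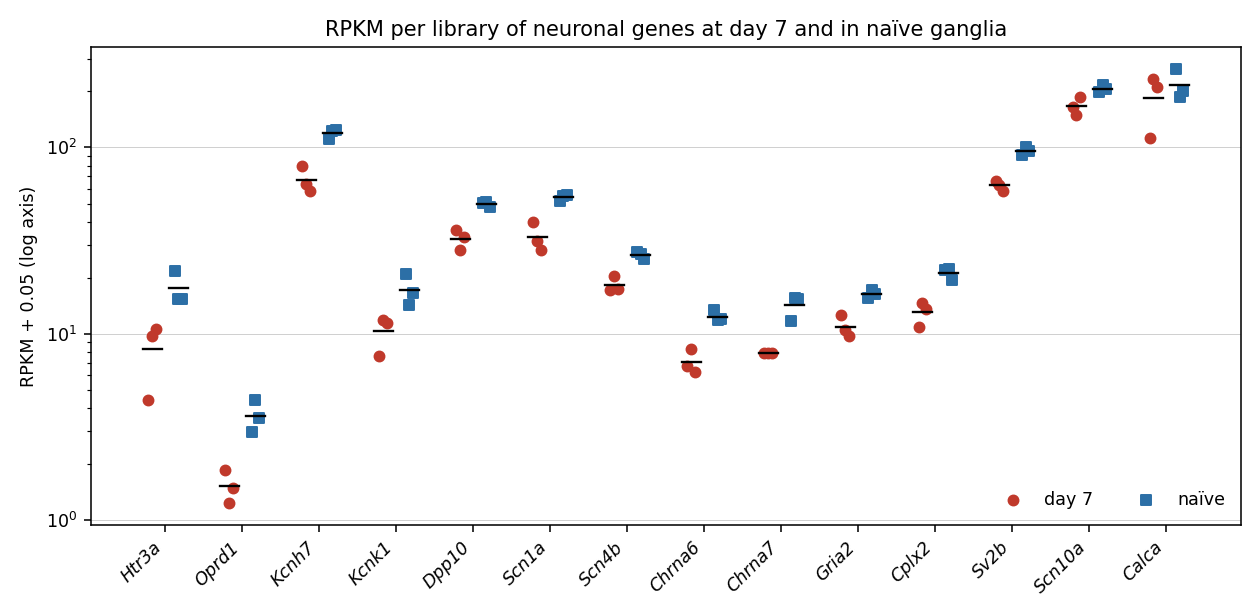
RPKM per library, plus 0.05 and on a log axis, of 14 neuronal genes, with day 7 libraries as red circles left of the naïve libraries as blue squares and a black bar at each group's mean. The groups are separated in the 12 genes from Htr3a to Sv2b and also in Scn10a, which did not pass the test, and they overlap in Calca, where the day 7 libraries lie at 112 to 232 RPKM and the naïve libraries at 186 to 263 RPKM.

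Receptors for transmitters included 4 of 33 called lower and 1 called higher, with a median of -0.27. Htr3a, which encodes the A subunit of the serotonin-gated 5-HT3 channel, had 4.37, 9.67 and 10.6 RPKM at day 7, against 21.7, 15.3 and 15.4 RPKM in naïve ganglia. It fell by 1.14 ± 0.24 (SE, adjusted p = 0.0196), and the call was lost without naïve replicate 1 (adjusted p = 0.0901), 2 (0.0568) or 3 (0.0549). Chrna6 and Chrna7, nicotinic receptor subunits, fell by 0.80 and 0.83 (adjusted p = 0.0105 and 0.0273). Chrna6 had 6.63, 8.22 and 6.21 RPKM at day 7, against 13.3, 11.7 and 11.9 RPKM in naïve ganglia. Its call was lost without day 7 replicate 3 (adjusted p = 0.051), and that of Chrna7 without naïve replicate 2 (0.137), naïve replicate 3 (0.132), day 7 replicate 2 (0.0896) or day 7 replicate 3 (0.107).

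Gria2, the AMPA receptor subunit that limits calcium entry, had 12.5, 10.4 and 9.63 RPKM at day 7, against 15.5, 17.1 and 16.2 RPKM in naïve ganglia, and fell by 0.59 (adjusted p = 0.0465). That call was lost without any library of the 6 except day 7 replicate 1, with adjusted p from 0.0629 without naïve replicate 1 to 0.198 without naïve replicate 2. Gabrg1, a GABA-A receptor subunit, went the opposite way, with 18.4, 19.0 and 12.8 RPKM at day 7, against 8.44, 6.93 and 7.60 RPKM in naïve ganglia. It rose by 1.04 ± 0.17 (SE, adjusted p = 0.00257) and passed in every alternative. The 4 lower calls of this list became 2, 1 and 1 without naïve replicates 1, 2 and 3 and 7, 2 and 1 without day 7 replicates 1, 2 and 3.

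Among 34 tested genes of synaptic vesicle release, 3 were called lower, 1 was called higher, and the median was -0.21. Cplx2, a complexin that clamps vesicle fusion, had 10.8, 14.6 and 13.4 RPKM at day 7, against 21.9, 22.2 and 19.3 RPKM in naïve ganglia, and fell by 0.72 ± 0.11 (SE, adjusted p = 0.00228). It passed in every alternative. Sv2b, a vesicle membrane protein, had 66.0, 62.8 and 58.6 RPKM at day 7, against 90.9, 101 and 96.2 RPKM in naïve ganglia, and fell by 0.64 (adjusted p = 0.01), a call lost without naïve replicate 2 (0.0666) or 3 (0.0569). Vamp1, a vesicle SNARE protein, was lower by 0.69 on the log2 scale at day 7 (adjusted p = 0.038) and lost its call without naïve replicates 1, 2 or 3 (0.162, 0.0554 and 0.107) and without day 7 replicates 1 or 3 (0.0868 and 0.0831). Syt4, a synaptotagmin of dense-core vesicles, had 106, 108 and 95.7 RPKM at day 7, against 71.3, 67.3 and 71.9 RPKM in naïve ganglia, and was called higher (fold change 0.53, adjusted p = 0.0359), which was lost without any library of the 6 except day 7 replicate 3 (adjusted p from 0.0683 to 0.125).

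Receptors that define nociceptors and those through which analgesics act held few calls. Of 22 nociceptor receptor genes, 1 was higher and 1 lower. Gfra1, a receptor for glial cell line-derived neurotrophic factor, had 52.3, 55.0 and 47.5 RPKM at day 7, against 27.9, 23.3 and 25.1 RPKM in naïve ganglia (0.98 ± 0.12, SE, adjusted p = 0.000274). Trpm8, the cold receptor, had 11.7, 10.8 and 13.3 RPKM at day 7, against 17.0, 20.2 and 16.4 RPKM in naïve ganglia (fold change -0.59, adjusted p = 0.0439), a call that was lost when any of the 6 libraries except day 7 replicate 1 was left out (adjusted p from 0.0624 to 0.211).

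Trpv1, the capsaicin receptor, had 10.0, 11.7 and 17.0 RPKM at day 7 and 14.6, 13.2 and 12.001 RPKM in naïve ganglia, overlapping throughout. P2rx3, the ATP-gated channel of nociceptors, had 38.1, 48.2 and 55.9 RPKM at day 7 and 35.5, 34.9 and 29.7 RPKM in naïve ganglia, without overlap, and missed the threshold (adjusted p = 0.0531). Of 19 inhibitory receptor genes, Oprd1, the delta opioid receptor, was called lower, with 1.80, 1.18 and 1.44 RPKM at day 7, against 2.93, 4.34 and 3.46 RPKM in naïve ganglia (fold change -1.06, adjusted p = 0.0208). Without naïve replicate 2 or 3, or day 7 replicate 2 or 3, its adjusted p was 0.121, 0.0782, 0.0947 and 0.0799.

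The peptides of uninjured nociceptors were not called. None of 7 tested passed, and their median was -0.31. It was -0.06 without day 7 replicate 1 and 0.05 without naïve replicate 1 and day 7 replicate 1, so its sign rests on those libraries. Calca, which encodes calcitonin gene-related peptide, had 112, 232 and 210.1 RPKM at day 7 and 263, 186 and 202 RPKM in naïve ganglia, so the groups overlapped. Tac1, which encodes substance P, had 89.1, 176 and 175 RPKM at day 7 and 221, 151 and 170.0 RPKM in naïve ganglia. In both genes day 7 replicate 1 was the lowest and naïve replicate 1 the highest of the 6 libraries. The 23 general sensory neuron markers held no call either, with a median of -0.07. Of 15 mechanoreceptor and proprioceptor genes, Nefh, the heavy neurofilament, was called lower (fold change -0.59, adjusted p = 0.0388), which was lost without any of the 3 naïve libraries (adjusted p 0.16, 0.114 and 0.0732) and without day 7 replicate 1 or 3 (0.0727 and 0.0777).

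Outside these lists the largest falls among well expressed genes were modest, and those given here are a selection, not a ranking by size. Vwc2l, a secreted protein with a von Willebrand factor C domain, had 3.18, 3.11 and 3.03 RPKM at day 7, against 6.85, 6.26 and 6.30 RPKM in naïve ganglia (fold change -0.97, adjusted p = 0.00264), a call lost without naïve replicate 1 and day 7 replicate 2 (0.0535). Rgs6, a regulator of G protein signalling, had 2.56, 3.41 and 3.22 RPKM at day 7, against 5.76, 5.49 and 4.95 RPKM in naïve ganglia (fold change -0.76, adjusted p = 0.00406), and passed in every alternative. Pnpla3 fell by 0.90 (adjusted p = 0.0073), a call lost without naïve replicate 2 (0.0532). Lgi3, a secreted leucine-rich protein of neurons, fell by 0.88 (adjusted p = 0.017) and lost its call without naïve replicate 1 (0.0621) or 3 (0.0914). Ache, acetylcholinesterase, fell by 0.79 (adjusted p = 0.0493) and lost its call in 14 of 19 alternatives, with an adjusted p of up to 0.222. The largest fall, -1.61, was at Mir691, a microRNA locus, with 1.59, 1.45 and 2.82 RPKM at day 7 and 10.7, 4.58 and 5.91 RPKM in naïve ganglia. Reads over so short a feature give an uncertain level, and it did not pass with voom on recovered reads (adjusted p = 0.235).

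**Figure D4:**
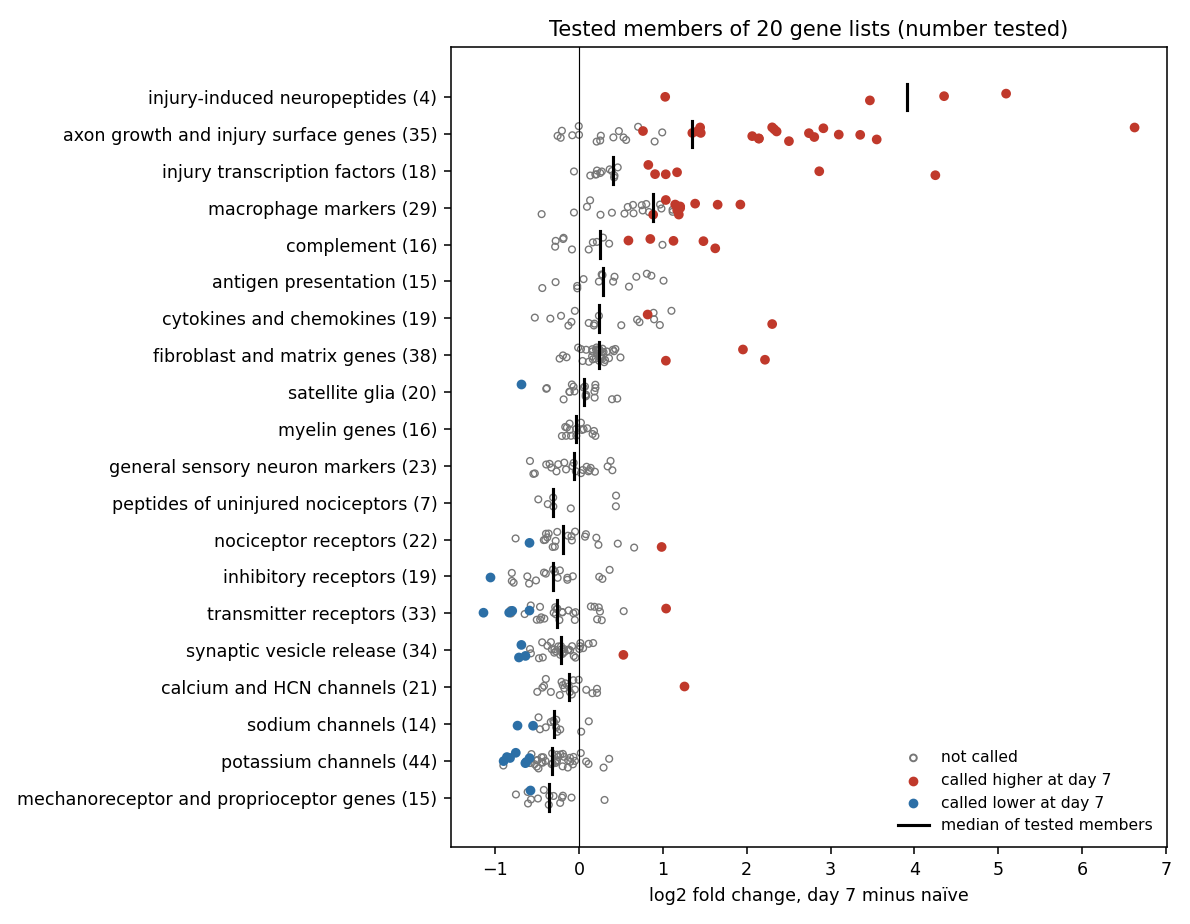
Log2 fold change, day 7 minus naïve, of every tested member of 20 gene lists, with the number tested in brackets, called members filled in red (higher) or blue (lower), others open, and a black bar at the list's median. Medians run from 3.91 for injury-induced neuropeptides to -0.36 for mechanoreceptor and proprioceptor genes, and called members of the macrophage and complement lists all lie on the higher side.

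Among the lists of non-neuronal cells, macrophage genes held the most calls. Of 40 listed, 29 were tested, 11 were called higher, none was called lower, and the median was 0.88. Summed over the list, expression was 154, 239 and 237 RPKM at day 7, against 122, 103 and 98.1 RPKM in naïve ganglia, so each day 7 library exceeded each naïve library. Ctss rose by 1.92 ± 0.20 (SE, adjusted p = 6.77e-05) and Csf1r by 1.38 ± 0.18 (SE, adjusted p = 0.000418). Lgals3, which encodes galectin-3 of phagocytes, had 6.30, 6.84 and 7.15 RPKM at day 7, against 2.33, 1.19 and 1.97 RPKM in naïve ganglia (fold change 1.65, adjusted p = 0.000625). Mrc1, the mannose receptor of tissue macrophages, had 11.3, 14.2 and 11.7 RPKM at day 7, against 6.07, 5.74 and 3.53 RPKM in naïve ganglia (fold change 1.21, adjusted p = 0.000853).

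Others called were Ms4a7, Itgam, Mpeg1, Laptm5, Fcgr2b and Ccr2, with fold changes from 1.21 to 0.88. Laptm5, a lysosomal membrane protein of blood cells, had no naïve library at 1 RPKM. It thus reached the expression filter only through injured libraries, which favoured a rise. Its call was lost without any library of the 6 except day 7 replicate 1, with adjusted p from 0.0973 without naïve replicate 1 to 0.163 without day 7 replicate 2. That of Fcgr2b, an inhibitory Fc receptor, was lost without naïve replicate 1 (0.17), naïve replicate 3 (0.157) or any day 7 library (0.0716, 0.146 and 0.0917 for replicates 1, 2 and 3), and that of Ms4a7 without naïve replicate 3 (0.0654) or day 7 replicate 3 (0.0514). Mpeg1, a pore-forming protein of macrophages, had 6.06, 5.98 and 6.58 RPKM at day 7, against 2.28, 2.65 and 2.39 RPKM in naïve ganglia. Ccr2, the chemokine receptor of infiltrating monocytes, had 4.04, 3.44 and 3.60 RPKM at day 7, against 1.96, 1.56 and 1.71 RPKM in naïve ganglia, and its call was lost without naïve replicate 2 (adjusted p = 0.0783), naïve replicate 3 (0.0691) or day 7 replicate 1 (0.0593). Cx3cr1, the fractalkine receptor, had 0.924, 1.52 and 1.74 RPKM at day 7 and 0.669, 0.397 and 0.0878 RPKM in naïve ganglia and missed the threshold (adjusted p = 0.0578). Ctss, Csf1r, Lgals3, Mrc1 and Mpeg1 passed in every alternative that kept them. The count of 11 was 7 without naïve replicate 3 and 5 without naïve replicate 1 and day 7 replicate 2, and 15 with voom.

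Complement genes were a shorter list, with 31.2% called against 37.9% of the tested macrophage genes. Of 16 tested, 5 were called higher and none lower, with a median of 0.25. C1qb and C1qc, subunits of the initiating complex C1q made by macrophages, rose by 1.48 and 1.62 (adjusted p = 0.0129 and 0.00658), C1qc with 2.12, 4.35 and 4.60 RPKM at day 7, against 1.52, 0.622 and 0.438 RPKM in naïve ganglia. The call of C1qb was lost without naïve replicate 3 (0.063) or day 7 replicate 2 (0.0572). C3, the central component, had 2.14, 2.61 and 4.00 RPKM at day 7, against 1.14, 0.824 and 1.07 RPKM in naïve ganglia (fold change 1.13, adjusted p = 0.0062). C4b rose by 0.85 (adjusted p = 0.00144), with the reservation that reads of its near-identical copy C4a may be shared. Without naïve replicate 3 the list held 3 calls.

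Antigen presentation genes were not called, at 0 of 15, with a median of 0.28. With array weights 5 were called higher, as were 5 without naïve replicate 1 and day 7 replicate 1, where the median was 0.50. Cd74, the invariant chain of class II molecules, had 18.0, 31.5 and 35.2 RPKM at day 7 and 20.6, 10.9 and 9.82 RPKM in naïve ganglia (adjusted p = 0.0702). Its deposited values overlapped through the highest naïve library, and it passed in 5 of 19 alternatives. Of 19 cytokine and chemokine genes, Csf1 and Il33 were called higher. Il33, an alarmin cytokine, had 3.19, 3.46 and 3.83 RPKM at day 7, against 2.04, 1.49 and 1.70 RPKM in naïve ganglia (fold change 0.82, adjusted p = 0.0158), and lost its call without naïve replicate 2 (0.0787), naïve replicate 3 (0.0665) or day 7 replicate 3 (0.052). Ccl2, the monocyte attractant that binds Ccr2, had 4.23, 2.74 and 3.10 RPKM at day 7 and 1.38, 1.63 and 1.55 RPKM in naïve ganglia, without overlap, and did not pass (adjusted p = 0.101). None of 8 tested neutrophil genes was called, with sums of 17.4, 40.1 and 38.3 RPKM at day 7 and 21.3, 23.7 and 20.8 RPKM in naïve ganglia, and none of 20 lymphocyte markers reached the expression filter.

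Glial gene lists held few calls. Of 20 satellite glia genes, 1 was called lower and the median was 0.06. Bcan, the matrix proteoglycan brevican, had 3.95, 3.97 and 6.21 RPKM at day 7, against 6.52, 8.01 and 8.53 RPKM in naïve ganglia (fold change -0.70, adjusted p = 0.0265), a call lost without naïve replicate 2 (0.127), naïve replicate 3 (0.144), day 7 replicate 1 (0.057) or day 7 replicate 2 (0.122). None of 16 myelin genes was called and their median was -0.04. Mbp, myelin basic protein, had 28.1, 35.1 and 47.5 RPKM at day 7 and 43.6, 34.2 and 36.6 RPKM in naïve ganglia, with overlap between the groups. Of 10 genes of repair Schwann cells, Runx2, a transcription factor, was called higher (fold change 0.65, adjusted p = 0.0181), and was lost without naïve replicate 1 or 2 (0.08 and 0.0758) or day 7 replicate 2 or 3 (0.0584 and 0.0652).

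Of 38 fibroblast and matrix genes, 3 were called higher, none was called lower, and the median was 0.24. Mmp16, a membrane-bound matrix metalloprotease, had 43.3, 41.7 and 35.3 RPKM at day 7, against 8.25, 7.23 and 8.74 RPKM in naïve ganglia (2.22 ± 0.16, SE, adjusted p = 1.72e-06). Loxl2, a collagen cross-linking enzyme, had 5.64, 6.02 and 3.97 RPKM at day 7, against 0.889, 0.644 and 1.36 RPKM in naïve ganglia (1.95 ± 0.23, SE, adjusted p = 0.000159). Col5a3, a chain of type V collagen, had 16.3, 15.5 and 20.2 RPKM at day 7, against 8.36, 6.98 and 8.74 RPKM in naïve ganglia (1.03 ± 0.15, SE, adjusted p = 0.00125). These 3 passed in every alternative that kept them. The other 35 did not pass, and the list as a whole summed to 789, 1027 and 1144 RPKM at day 7, against 948, 761 and 751 RPKM in naïve ganglia.

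Set directly against day 3, the nearest injured time, no gene was called at day 7 with limma, while 716 of 14195 genes had an unadjusted p under 0.05 (5.04%) and voom on recovered reads also called none. The 2 genes with the smallest adjusted p, named after their values were seen, were Paqr3 and Pafah1b3 (adjusted p = 0.0547 for both). Paqr3, a Golgi membrane protein, averaged 4.69 ± 0.89 RPKM at day 7 and 1.92 ± 0.30 RPKM at day 3 (SD, n = 3 each), a fold change of 1.09. Pafah1b3, a subunit of platelet-activating factor acetylhydrolase, averaged 1.19 ± 0.36 RPKM at day 7 and 3.81 ± 0.31 RPKM at day 3 (SD, n = 3 each), a fold change of -1.37. Neither differed from naïve at day 7 past the threshold (adjusted p = 0.952 and 0.325). A missed threshold with 3 libraries in each group does not show that the 2 days were alike.

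Over the time course, genes called at day 7 followed different courses in their group means. Atf3 averaged 2.36 ± 0.03 RPKM in naïve ganglia, 69.4 ± 10.7 at day 1, 90.9 ± 11.7 at day 3 and 55.8 ± 13.2 at day 7 (SD, n = 3 each). Adcyap1 averaged 17.8 ± 1.94 RPKM in naïve ganglia, 79.5 ± 14.7 at day 1, 67.7 ± 3.55 at day 3 and 38.4 ± 11.4 at day 7 (SD, n = 3 each). Both had their highest mean before day 7, and the differences of day 7 from day 3 were -0.71 and -0.84, neither past the threshold (adjusted p = 0.498 for both).

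Npy and Sprr1a had their highest means at day 7. Npy averaged 0.25 ± 0.34 RPKM in naïve ganglia, 6.37 ± 1.89 at day 1, 18.9 ± 2.38 at day 3 and 24.3 ± 7.30 at day 7 (SD, n = 3 each), and the day 3 and day 7 libraries overlapped. Ctss averaged 3.49 ± 0.50 RPKM in naïve ganglia, 4.12 ± 0.36 at day 1, 9.23 ± 2.01 at day 3 and 15.6 ± 5.56 at day 7 (SD, n = 3 each). Csf1r averaged 1.29 ± 0.23 RPKM in naïve ganglia, 1.25 ± 0.29 at day 1, 2.78 ± 0.49 at day 3 and 4.26 ± 0.78 at day 7 (SD, n = 3 each). The differences of day 7 from day 3 were 0.68 for Ctss and 0.54 for Csf1r and did not pass (adjusted p = 0.819 and 0.84).

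The macrophage list had median fold changes against naïve of -0.004 at day 1, 0.61 at day 3 and 0.88 at day 7, and the transcription factor list of 0.66, 0.49 and 0.40. For potassium channels the medians were -0.25, -0.48 and -0.32. These 3 comparisons share their naïve libraries, so the medians are not independent of each other. Dpp10 averaged 49.7 ± 1.36 RPKM in naïve ganglia, 30.0 ± 2.18 at day 1, 22.5 ± 2.01 at day 3 and 32.4 ± 3.91 at day 7 (SD, n = 3 each), and its day 7 libraries lay between those of day 3 and naïve ganglia without overlapping either (difference from day 3 of 0.51, adjusted p = 0.74). Tmem255a, a membrane protein chosen after its values were seen, showed the same arrangement, with 65.1 ± 3.15, 44.6 ± 3.50, 33.9 ± 3.04 and 49.1 ± 4.21 RPKM in the same order. Its fold change at day 7 against naïve was -0.43. That call was lost without naïve replicates 1, 2 or 3 (adjusted p = 0.0804, 0.103 and 0.11) or day 7 replicates 2 or 3 (0.0985 and 0.0567).

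**Figure D5:**
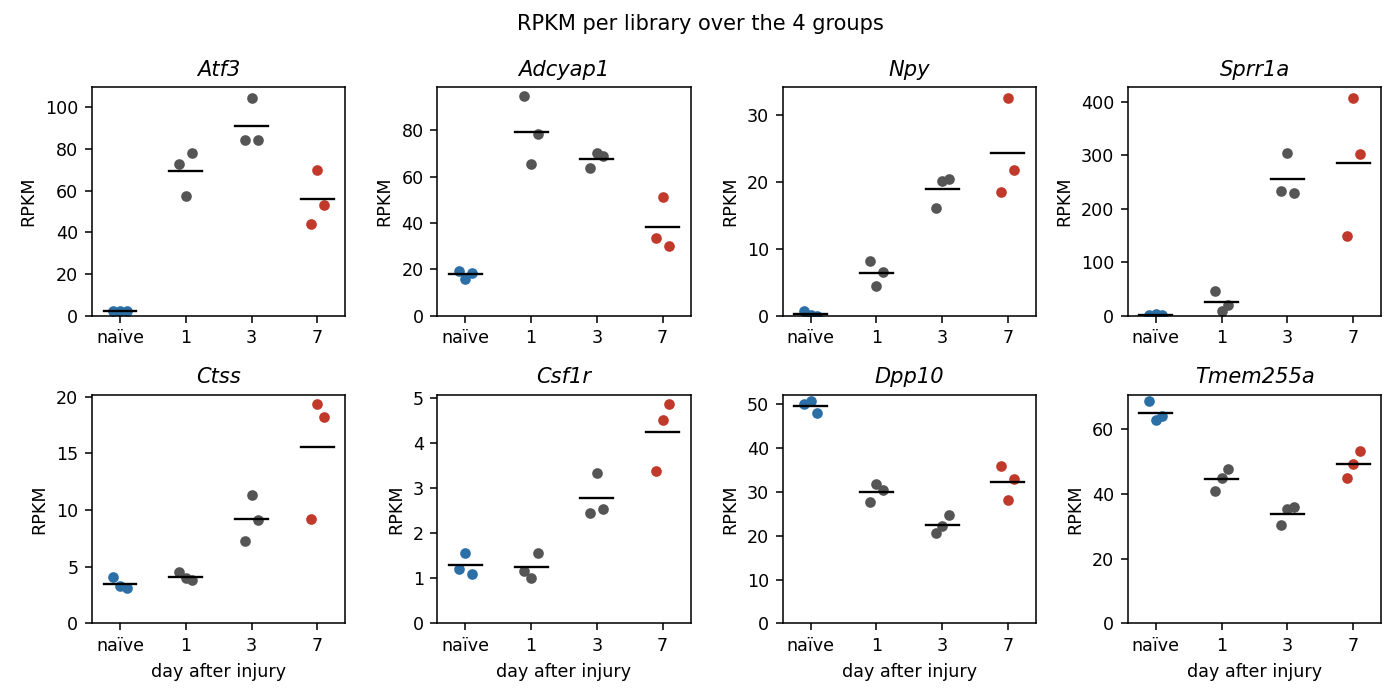
RPKM per library of 8 genes in naïve ganglia (blue), at days 1 and 3 (grey) and at day 7 (red), with a black bar at each group's mean of 3 libraries and linear axes that start at 0. Group means are highest at day 3 for Atf3 (90.9 RPKM), at day 1 for Adcyap1 (79.5 RPKM) and at day 7 for Npy, Sprr1a, Ctss and Csf1r, while Dpp10 and Tmem255a have their lowest means at day 3.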

How the data were processed

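RNA from dorsal root ganglia was amplified from a low input (Nugen Ovation) and made into TruSeq Nano libraries, per the labels' protocols. The submitters' processing notes name bcl2fastq 2.17, STAR, HTSeq, edgeR, limma and the mm10 build, with no role or order; the sources used here give neither the annotation nor the strandedness. The deposited files state no unit; their values were read as RPKM made by the authors, since within a gene they are whole multiples of the worth of 1 read. Whole reads were recovered within 0.05 for 99.3% of the 14195 genes tested, those with at least 1 RPKM in at least 3 of 12 libraries. Amplified reads are not independent molecules.

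Libraries were scaled by unweighted trimmed means (30% of log ratios, 5% of levels), and log2(RPKM + 0.5) was fitted with limma 3.58.1 in R 4.3.3 (trend, robust, 4 group means, 8 residual degrees of freedom, two-sided, Benjamini-Hochberg). An exact permutation test of 3 against 3 cannot go below p = 0.1. Fold changes on this scale understate changes of low genes. Named genes were the 15 largest rises and falls past the threshold with a mean log2 level above 2 and separate libraries, the 4 members of each list with the lowest p, and 15 set genes; other called members of lists and a few further genes were named after their values were seen. Members and the 36 lists were chosen with earlier results of these data known, so lists are described by counts and medians only. Gene positions are from GENCODE M21. A few genes within the rule are not reported here.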

Additional observations from a re-analysis of the deposited data

How the results depend on the processing

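No called gene changed sign in any alternative tried. The 415 calls at day 7 against naïve stayed within 1.5 times under other pseudocounts, filters, scalings and voom on recovered reads (336 to 550). They were 831 with array weights, which gave day 7 replicate 1 a weight of 0.336, 258 with only the 2 groups fitted and 165 without naïve replicate 1 and day 7 replicate 2 together. Leaving out 1 library at a time gave 235 to 522 calls. Without naïve replicate 1 and day 7 replicate 1 together, an alternative chosen after seeing the data, 584 were called, 60.4% of them higher. Against day 3, the count of 0 became 4 with no expression filter (3 higher, 1 lower) and 2 with quantile normalization.

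Deviations of same-numbered day 7 and naïve libraries correlated at -0.34, -0.16 and -0.04. Those of same-numbered day 7 and day 3 libraries correlated at 0.234, 0.179 and 0.065. So few libraries cannot show whether replicate numbers paired the groups. With the replicate block, 323 genes were called, 271 higher and 52 lower. Of 92 called genes among those named, 44 passed in every alternative and 48 lost the call in at least 1. Depth limits genes near 1 RPKM, and with no mouse numbers in the labels the spread between animals is unknown.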

Other observations

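Lists not described above held at most 3 calls each, in some a share above the 2.92% of all genes tested. Of 26 tubulin and microtubule motor genes, 3 were called higher (11.5%), of which 1 passed in every alternative. Of 26 stress and chaperone genes, 2 were called higher (7.69%). The muscle list held 2 calls in 11 tested genes (18.2%) and the adipocyte list 1 in 4 (25%). Cdkn1a, a cell cycle inhibitor, had 8.65, 17.3 and 19.5 RPKM at day 7, against 5.30, 6.12 and 5.98 RPKM in naïve ganglia (fold change 1.21, adjusted p = 0.00444), and was the only call among 23 cell division genes. Its call was lost without naïve replicate 1 and day 7 replicate 2 (0.098). Top2a, a marker of dividing cells, had 2.80, 2.36 and 2.14 RPKM at day 7 and 0.655, 1.37 and 1.1998 RPKM in naïve ganglia, without overlap, and did not pass (adjusted p = 0.0772). Of 24 cholesterol synthesis genes, Hsd17b7, a sterol reductase, was called higher, with 48.1, 52.9 and 44.0 RPKM at day 7, against 20.4, 23.4 and 21.8 RPKM in naïve ganglia (1.10 ± 0.14, SE, adjusted p = 0.000258). The list's median was 0.02. Slc2a1, the glucose transporter of vessel and perineurial cells, had 7.27, 10.8 and 12.5 RPKM at day 7, against 5.43, 4.59 and 4.61 RPKM in naïve ganglia (fold change 0.94, adjusted p = 0.00444), and was the only call among 23 vessel genes, lost without naïve replicate 1 and day 7 replicate 2 (0.06). Of 25 interferon response genes, Oas2 was called higher (fold change 1.01, adjusted p = 0.03), with no naïve library at 1 RPKM, so that it reached the expression filter only through injured libraries. Its call was lost without naïve replicates 1, 2 or 3 (0.0643, 0.145 and 0.0686) or day 7 replicates 1 or 3 (0.083 and 0.0945).

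Of 11 tested muscle genes, Actn2 and Tnni1 were called higher (adjusted p = 0.00391 and 0.0077). Actn2, a sarcomeric actinin, had 2.20, 2.86 and 3.42 RPKM at day 7, against 1.03, 1.18 and 0.883 RPKM in naïve ganglia. Tnni1, slow troponin I, had 1.56, 2.54 and 1.45 RPKM at day 7, against 0.313, 0.214 and 0.473 RPKM in naïve ganglia. It was thus tested only through its injured libraries, which favoured a rise. The muscle myosin Myh4 had a different course, with 0.195, 10.3 and 0.194 RPKM at day 7 and 9.75, 2.59 and 0.502 RPKM in naïve ganglia. Without naïve replicate 1 and day 7 replicate 2, the adjusted p was 0.0624 for Actn2 and 0.14 for Tnni1, and without day 7 replicate 2 alone that of Tnni1 was 0.0505. Car3, a carbonic anhydrase of fat and muscle, had 6.81, 13.6 and 12.1 RPKM at day 7, against 3.24, 1.21 and 2.50 RPKM in naïve ganglia (fold change 2.01, adjusted p = 0.00457). It belongs to the adipocyte list, whose other 12 genes summed to 5.675, 7.19 and 12.6 RPKM at day 7 and 10.4, 5.42 and 8.30 RPKM in naïve ganglia, with overlap. The part of surrounding tissue in these values was not tested.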
